A study of Homo sapiens with 6 samples.

Results

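The EphA receptors are a family of membrane tyrosine kinases, and 9 of them were chosen by gene symbol, with no measured value in the rule, from a table of 50883 gene symbols. The choice was made with earlier results of these data known. RNA was sequenced from D283 cells, a long-established human line that came from a medulloblastoma, which is a cancer arising in the cerebellum. The OTX2 knockout group comprised 3 cultures that received a guide RNA against OTX2, which encodes a homeodomain transcription factor needed for forebrain, midbrain and eye development, and the control group 3 cultures that received a non-targeting guide. All 6 cultures carried a lentivirus that also expresses GFP, and cells were harvested 7 days later. No parental cells without virus were analysed here, and the sources used here do not name the nuclease, the number of guides or the share of edited cells. The labels give triplicate infections of 1 line. The error behind each p-value is the spread between these libraries, moderated over all tested genes, and this spread may be technical. The comparison addresses how RNA levels of the receptors differ when OTX2 is targeted.

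Eph receptors bind ephrins on the surface of neighbouring cells, so signalling needs cell contact. A-type ephrins are held in the membrane by a lipid anchor and bind mainly EphA receptors, whereas B-type ephrins span the membrane and bind mainly EphB receptors. Binding starts tyrosine phosphorylation in the receptor-bearing cell, which acts on the cytoskeleton, and can also signal back into the ephrin-bearing cell. In the developing brain the family steers axons and sets boundaries between regions, and several members are studied in tumours.

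Total counts ranged from 60561438 to 62166870 in the knockout libraries and from 54540645 to 61662466 in the control libraries. OTX2 RNA itself fell modestly, to 825 ± 61.1 CPM in knockout cells, against 964 ± 48.4 CPM in control cells (SD, n = 3 each; edgeR quasi-likelihood adjusted p = 0.00646). CPM here are counts relative to TMM-scaled library sizes. An edit can leave a transcript in place, so the RNA level checks the labels only weakly. Control replicate 1 stood apart, with 0.764% of its counts in mitochondrially encoded genes, against 0.531% to 0.601% in the knockout libraries and 0.440% and 0.449% in the other controls. All 7 markers listed for this tumour type, with OTX2 itself among them, exceeded 1 CPM in both groups, and all 7 fell. Over all tested genes 18.5% were called as lower at an adjusted p under 0.05. The 7 markers summed to 3122 to 3688 CPM in knockout libraries and 4455 to 4769.5 CPM in control libraries. Summed over the 10 neuronal markers listed, the level was 87.4 to 99.8 CPM in knockout libraries and 34.3 to 38.6 CPM in control libraries. Of the 10, 8 rose, beside 21.2% called as higher over all tested genes. ELAVL4 and RBFOX3, among the 8, passed the low-count filter only through the knockout libraries, so this count supports nothing on its own. The neuronal tubulin TUBB3, not among the 8, was listed at 0 in all 6 libraries. GENCODE places another protein-coding gene over TUBB3 on the same strand, and how shared reads were counted is unknown, so this 0 was not read as absence and the neuronal sum leaves out any TUBB3 reads. Of the 6 immune markers, 0 reached a mean of 1 CPM in either group, and their sum was at most 0.647 CPM in knockout libraries and 0.932 CPM in control libraries.

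EPHA3, EPHA4 and EPHA5 rose 8.11-fold to 9.23-fold in the OTX2 knockout cultures, while EPHA2 and EPHA8 fell by small amounts. EPHA6 and EPHA7 did not pass the test, and EPHA1 and EPHA10 had too few counts to be tested. With edgeR's quasi-likelihood test and a Benjamini-Hochberg adjusted p under 0.05, 3 of the 7 tested receptors rose and 2 fell. Over all 18420 tested genes 39.7% were called, 21.2% as higher and 18.5% as lower. The 2 groups of CPM values were fully separate for 6 of the 7, against 49.2% of all tested genes. These counts support nothing on their own, because EPHA3 and EPHA5 passed the low-count filter only through the knockout libraries, where they were high. The direction of calls over all genes depended on scaling: 3908 rose and 3404 fell here, and 5210 rose and 2034 fell with library totals alone.

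**Figure D1:**
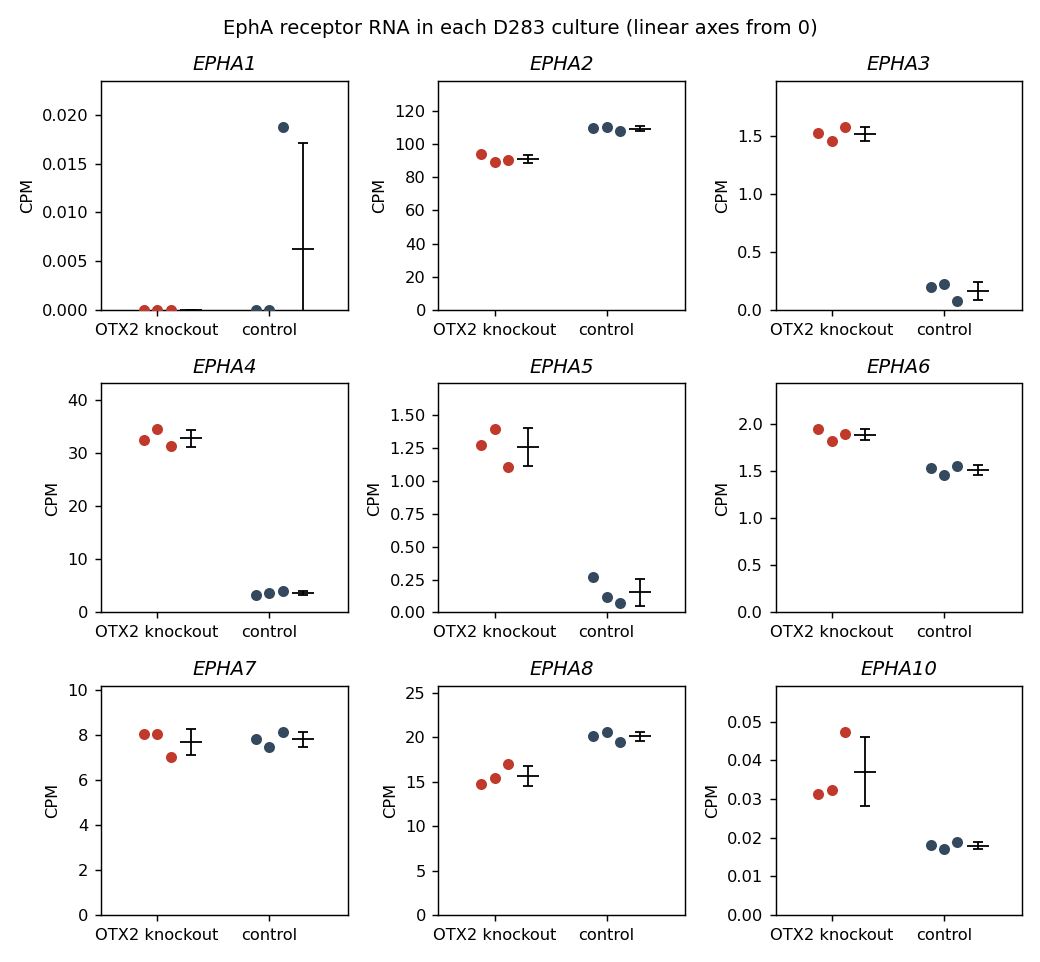
Level of each EphA receptor in CPM (vertical axes, linear from 0) in the 3 OTX2 knockout and 3 control cultures; points are cultures, and the bar beside them is the mean with its SD, clipped at 0. EPHA3, EPHA4 and EPHA5 separated widely, EPHA2 and EPHA8 were lower in all 3 knockout cultures, and EPHA1 and EPHA10 rest on 0 to 3 counts per culture.

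EPHA4 had the largest gain in CPM among the receptors. It is the family member known for binding both A-type and B-type ephrins, and in mice it is the receptor through which spinal axons are repelled by an ephrin at the midline. The knockout libraries held 32.4, 34.5 and 31.4 CPM, from 2066, 2134 and 1987 counts, and the control libraries 3.34, 3.68 and 4.00 CPM, from 185, 217 and 213 counts. The lowest knockout culture was far above the highest control culture. The level averaged 32.8 ± 1.59 CPM in knockout cells and 3.67 ± 0.328 CPM in control cells (SD, n = 3 each), which is 3.16 as a log2 fold change (SE 0.07, edgeR quasi-likelihood adjusted p = 1.82e-13). EPHA4 spans positions 221418027 to 221574202 of chromosome 2 (GRCh38, minus strand), and no exon of another gene in the table overlaps it.

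EPHA3, a receptor of axon guidance in the visual system that is also studied in glioma, was near the detection limit in control cells. The knockout libraries held 97, 90 and 100 counts, and the control libraries 11, 13 and 4 counts. This corresponds to 1.52, 1.46 and 1.58 CPM in the knockout libraries and 0.199, 0.220 and 0.0750 CPM in the control libraries, where 3 counts equal 0.0508 to 0.0563 CPM. The groups did not overlap. The log2 fold change was 3.17 (SE 0.26, edgeR quasi-likelihood adjusted p = 1.34e-07). EPHA3 spans positions 89107524 to 89482134 of chromosome 3 (plus strand).

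EPHA5, a receptor found mainly in neurons, was similarly low. It had 81, 86 and 70 counts in the knockout libraries and 15, 7 and 4 counts in the control libraries, or 1.27, 1.39 and 1.11 CPM against 0.271, 0.119 and 0.0750 CPM. All knockout cultures exceeded all control cultures, and control replicate 1 was the highest control. The log2 fold change was 3.00 (SE 0.30, edgeR quasi-likelihood adjusted p = 1.37e-06), and 3.65 without control replicate 1. EPHA5 spans positions 65319563 to 65670495 of chromosome 4 (minus strand).

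The 3 rises had overlapping 95% intervals: 8.0-fold to 9.97-fold for EPHA4, 6.17-fold to 13.2-fold for EPHA3 and 5.14-fold to 12.5-fold for EPHA5. Their log2 fold changes ranked 143, 139 and 171 from the top among the 18420 tested genes. EPHA3 and EPHA5 passed the low-count filter only through the knockout libraries, so their ranks support nothing on their own. Beside the neuronal markers given above, summed levels were also higher for 6 epithelial markers, at 122 to 133 CPM in knockout libraries and 22.9 to 27.6 CPM in control libraries, with 3 that rose. This and the next marker counts stand beside 21.2% called as higher over all tested genes. KRT5 here, and DCN and POSTN among the mesenchymal markers given next, passed the low-count filter only through the knockout libraries. The epithelial and mesenchymal counts therefore support nothing on their own. For 6 mesenchymal markers the sums were 13.6 to 15.3 CPM in knockout libraries and 4.78 to 5.31 CPM in control libraries, with 4 that rose. For 6 astroglial markers they were 266 to 309.9 CPM in knockout libraries and 146 to 171 CPM in control libraries, nearly all of it from GJA1, the 1 that rose. GJA1 averaged 279 CPM in knockout cells and 154 CPM in control cells, while SLC1A2 averaged 2.90 CPM in knockout cells and 3.03 CPM in control cells and did not pass, and GFAP was below 0.1 CPM in every library. The epithelial sum was likewise nearly all KRT8 and KRT15, with EPCAM at 0.240 CPM in knockout cells and 0.241 CPM in control cells. KRT15 averaged 70.2 CPM in knockout cells and 0.274 CPM in control cells, and KRT8 52.2 CPM in knockout cells and 24.7 CPM in control cells. KRT5, which also rose, averaged 4.06 CPM in knockout cells and 0.0237 CPM in control cells. The part of these marker changes in the receptor rises was not tested. In bulk RNA, more cells that express a gene and more RNA per cell cannot be told apart.

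EPHA2, a receptor of epithelial cells that is abundant in many carcinomas, had the most counts of the family. The knockout libraries held 93.7, 89.1 and 90.3 CPM and the control libraries 109.4, 110.2 and 107.5 CPM. Every knockout culture was below every control culture, by a margin larger than the spread within either group. The log2 fold change was -0.26 (SE 0.04, edgeR quasi-likelihood adjusted p = 0.000263), which is a 1.2-fold fall with a 95% interval of -0.36 to -0.17 on the log2 scale. EPHA2 spans positions 16124337 to 16156087 of chromosome 1 (minus strand).

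EPHA8, a receptor best known from the developing midbrain in mice, fell to 14.8, 15.4 and 17.0 CPM in the knockout libraries, against 20.2, 20.6 and 19.5 CPM in the control libraries. The groups did not overlap, and the log2 fold change was -0.36 (SE 0.06, edgeR quasi-likelihood adjusted p = 0.000346). Both falls were smaller than 1.5-fold, and neither passed when tested against a change of that size. EPHA8 spans positions 22563564 to 22603594 of chromosome 1 (plus strand). The nearest tested protein-coding gene at higher coordinates, 107 kb away, was EPHB2, which rose 43.8-fold, and ZBTB40 on the other side did not pass, so neighbouring receptor genes moved in opposite directions.

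EPHA6 and EPHA7, both receptors of the developing forebrain, did not pass. EPHA6 lies on chromosome 3, from 96814581 to 97752460, and EPHA7 on chromosome 6, from 93240020 to 93419547. EPHA6 had 1.95, 1.83 and 1.90 CPM in knockout libraries and 1.53, 1.46 and 1.56 CPM in control libraries, with no overlap. Its log2 fold change of 0.32 (SE 0.13) gave 0.0610 as the edgeR quasi-likelihood adjusted p. With library totals alone its adjusted p was 0.0246, and with a filter of at least 1 CPM in 3 libraries it was 0.0382, in a range of 0.0246 to 1 over all alternatives. The top of this range came from the test against a 1.5-fold change, which asks another question than a test against no change. EPHA7 had 8.02, 8.05 and 7.03 CPM in knockout libraries and 7.8, 7.47 and 8.14 CPM in control libraries, and the groups overlapped. The 95% interval of its log2 fold change ran from -0.19 to 0.15, so a change of 1.5-fold in either direction lay outside it.

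EPHA1, the founding member of the family, which lies on chromosome 7 from 143390289 to 143408892, had 0, 0 and 0 counts in the knockout libraries and 0, 0 and 1 count in the control libraries. A count of 0 allows up to 3 counts, or 0.0471 to 0.0485 CPM in the knockout libraries, and a difference was not detectable at this depth. Exons of EPHA1 overlap those of ZYX, and the sources used here do not name the counting program or strand setting. EPHA10, on chromosome 1 from 37713880 to 37765133, is thought to lack kinase activity. It had 2, 2 and 3 counts in the knockout libraries and 1, 1 and 1 count in the control libraries. Scaled by library size, the ratio of the summed counts was 2.07, with a 95% counting interval of 0.473 to 12.4 that includes 1.

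**Figure D2:**
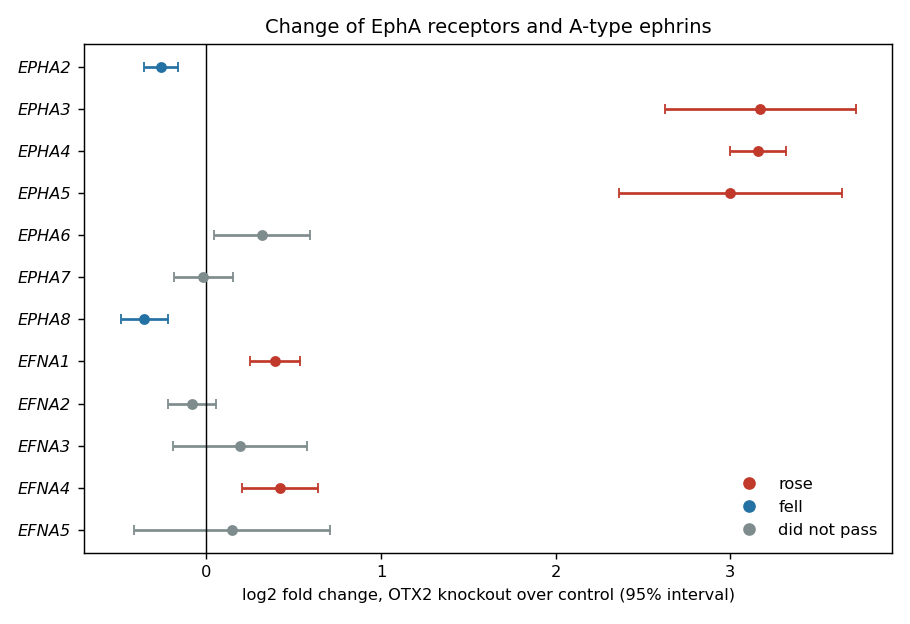
Log2 fold change of OTX2 knockout over control (horizontal axis) with its 95% interval for the 7 tested EphA receptors and the 5 A-type ephrins; colour marks genes that rose, fell or did not pass. EPHA3, EPHA4 and EPHA5 lie near 3, while the other receptors and the ephrins lie between -0.36 and 0.42.

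Divided by the length of the longest annotated transcript, so that genes can be compared, EPHA2 was the highest EphA receptor in both groups and EPHA4 moved up the order. In knockout cells EPHA2 had 23.0 ± 0.600 CPM per kb, and it was followed by EPHA4 at 5.16 ± 0.251, EPHA8 at 3.18 ± 0.230, EPHA7 at 1.17 ± 0.0885, EPHA6 at 0.476 ± 0.0151, EPHA3 at 0.262 ± 0.0107 and EPHA5 at 0.149 ± 0.0170 CPM per kb (SD, n = 3). The ranges of neighbours in this order did not overlap. In control cells EPHA2 had 27.5 ± 0.349 CPM per kb, followed by EPHA8 at 4.07 ± 0.114, EPHA7 at 1.18 ± 0.0510, EPHA4 at 0.578 ± 0.0517 and EPHA6 at 0.382 ± 0.0133 CPM per kb. EPHA3 and EPHA5 came next, at 0.0283 ± 0.0135 and 0.0184 ± 0.0122 CPM per kb, with ranges that overlapped. EPHA4 was thus at place 2 of 9 in knockout cells and at place 4 of 9 in control cells, and these places were the same with the length of merged exons or the longest coding length.

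The summed level of the 9 receptors per length of longest transcript was nearly equal in the groups, while its make-up differed. The sum was 33.4 ± 0.428 CPM per kb in knockout cells and 33.8 ± 0.381 CPM per kb in control cells (SD, n = 3 each). The sign of this small difference depended on the length used. On merged exons the sum was 30.6 to 31.3 CPM per kb in knockout libraries and 31.4 to 32.1 CPM per kb in control libraries. On the coding length it was higher in knockout libraries, at 50.9 to 52.1 CPM per kb, against 47.8 to 48.8 CPM per kb in control libraries. The groups did not overlap on either of these lengths. EPHA4 made up 14.9% to 16.4% of the sum in knockout libraries and 1.55% to 1.89% in control libraries. EPHA2 made up 67.9% to 69.8% in knockout libraries and 81.3% to 81.6% in control libraries. EPHA3 and EPHA5 rose by a similar fold as EPHA4 but at a much lower level, and held at most 0.821% and 0.498% of the sum in any knockout library and at most 0.111% and 0.0950% in any control library.

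**Figure D3:**
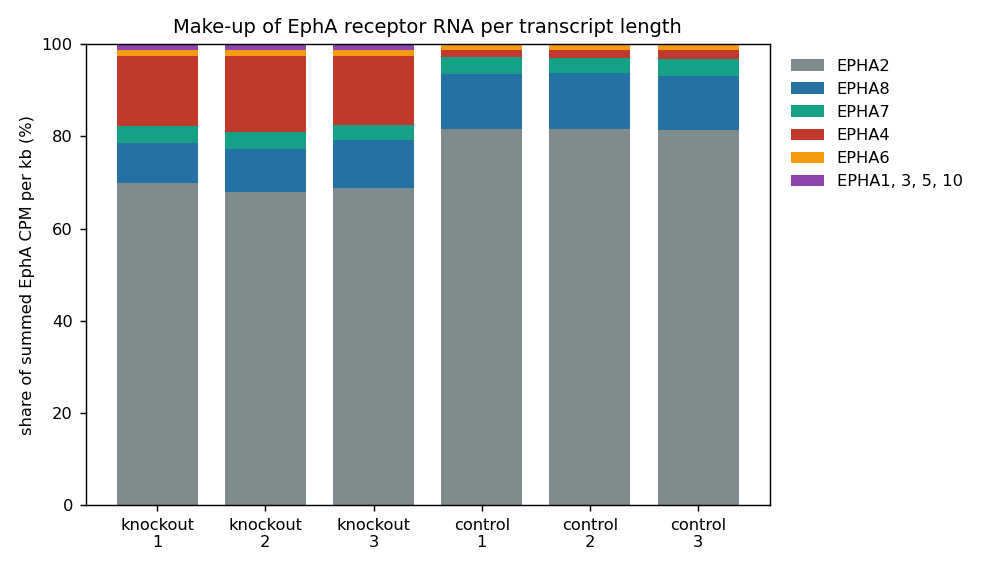
Share of each EphA receptor in the summed EphA level, in percent of CPM per kb of longest transcript (vertical axis), for each OTX2 knockout and control culture. EPHA4 widened to at least 14.9% in every knockout culture, against at most 1.89% in any control culture, while EPHA2 remained the largest part in both groups.

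Promoter sequence from RefSeq on GRCh38 patch 14 was found for 8 of the 9 receptors, in 13 windows of 300 bases, since some genes have several annotated starts. The windows run from 250 bases before to 50 bases after a start. They are shown for the 3 receptors that rose together, so that their starts can be compared, and for EPHA2, the most abundant member and 1 of the 2 that fell. For each of these genes the 250 bases before the start in its top-listed window are printed 5′ to 3′ on the strand of the gene. The windows are chr3:89107371-89107620 on the plus strand for EPHA3, chr2:221574203-221574452 on the minus strand for EPHA4, chr4:65670490-65670739 on the minus strand for EPHA5 and chr1:16156070-16156319 on the minus strand for EPHA2. Capitals mark the letters TAATCC (or GGATTA on the other strand), the core that OTX2 and other bicoid-type homeodomains bind, and CANNTG, the E-box of basic helix-loop-helix factors, which reads alike on both strands.
EPHA3: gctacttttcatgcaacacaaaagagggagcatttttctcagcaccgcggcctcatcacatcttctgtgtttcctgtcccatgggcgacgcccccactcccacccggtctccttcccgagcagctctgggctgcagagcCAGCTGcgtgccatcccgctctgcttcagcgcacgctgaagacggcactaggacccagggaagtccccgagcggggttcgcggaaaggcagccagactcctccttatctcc
EPHA4: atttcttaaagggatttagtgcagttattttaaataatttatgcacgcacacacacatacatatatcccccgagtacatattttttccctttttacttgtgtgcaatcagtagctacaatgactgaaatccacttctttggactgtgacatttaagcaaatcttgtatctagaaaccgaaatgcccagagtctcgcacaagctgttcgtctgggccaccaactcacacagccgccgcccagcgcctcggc
EPHA5: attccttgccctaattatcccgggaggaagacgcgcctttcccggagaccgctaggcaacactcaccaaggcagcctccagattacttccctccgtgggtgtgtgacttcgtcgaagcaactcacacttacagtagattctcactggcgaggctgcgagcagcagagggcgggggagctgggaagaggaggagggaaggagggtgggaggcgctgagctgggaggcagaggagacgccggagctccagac
EPHA2: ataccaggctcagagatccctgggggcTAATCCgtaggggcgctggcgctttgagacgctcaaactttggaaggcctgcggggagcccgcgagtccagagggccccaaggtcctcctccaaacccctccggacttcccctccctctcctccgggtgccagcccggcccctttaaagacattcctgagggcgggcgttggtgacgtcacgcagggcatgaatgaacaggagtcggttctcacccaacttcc

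TAATCC occurred in the EPHA2 window, at position -223 relative to the start, and at 2 places in the EPHA1 window, so in 2 of the 13 receptor windows. Of all 35116 windows of this length, 6.36% held it. The windows of EPHA3, EPHA4, EPHA5 and EPHA8 held no match. An E-box occurred in 6 of the 13 receptor windows, against 68.7% of all windows. EPHA3 held 1, EPHA8 held 2, and neither EPHA4 nor EPHA5 held any in either of its windows. In the windows of the printed sequences, the observed to expected CpG ratio was 0.654 for EPHA3, 0.894 for EPHA4, 0.675 for EPHA5 and 0.644 for EPHA2. The median over all windows was 0.579. In their other windows the ratio was 0.796 for EPHA4 and 0.701 for EPHA5. This EPHA4 window held only 12 CpG sites, against a median of 14 over all windows, and its other window held 33. The GC content was 43.0% in this EPHA4 window and 74.3% in its other window, against a median of 58.7%. A letter match is not evidence of binding, and starts used in D283 were not analysed here.

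The genes that bracket the rising receptors lay far away and moved by smaller amounts. The nearest tested protein-coding genes of EPHA4 were SLC4A3, 1776 kb away, which rose with a log2 fold change of 0.92, and SGPP2, which did not pass (log2 fold change -0.89, edgeR quasi-likelihood adjusted p = 0.146). Around EPHA3, PROS1 rose with a log2 fold change of 0.93, and C3orf38 did not pass. Around EPHA5, IGFBP7 8209 kb away, rose with a log2 fold change of 1.14, and CENPC did not pass. EPHA3 and EPHA6 share chromosome 3, with a gap of 7.33 Mb between them.

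Among all tested genes, the profile over the 6 libraries nearest to that of EPHA3 belonged to PLCB4, a phospholipase C, at a Euclidean distance of 0.540 in log2 CPM. PLCB4 had 1.29 ± 0.0615 CPM in knockout cells and 0.147 ± 0.0791 CPM in control cells (SD, n = 3 each). IGFBP6, RP11-166D19.1, NR2F1-AS1 and ST18 followed, at distances of 0.798 to 0.980. For EPHA4, a comparison added after its values were seen, the nearest were CPLX2, a complexin of synaptic vesicle release, at 0.893 and the axonal adhesion molecule L1CAM at 0.993, followed by RYR2, PLEKHG5 and TP53I11 at 1.16 to 1.2. L1CAM had 33.0 ± 1.2 CPM in knockout cells and 2.50 ± 0.221 CPM in control cells.

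Of the 5 A-type ephrins, the main ligands of these receptors, 2 rose and 0 fell, beside 21.2% higher and 18.5% lower over all tested genes. The list had a median log2 fold change of 0.19, against 0.01 over all tested genes. EFNA1, which binds EPHA2 with high affinity, had 13.9, 12.9 and 14.3 CPM in knockout libraries and 9.97, 10.7 and 10.5 CPM in control libraries, and the log2 fold change was 0.39 (SE 0.07, edgeR quasi-likelihood adjusted p = 0.000257). The groups did not overlap, so EFNA1 rose where its receptor EPHA2 fell. EFNA4 had 3.99, 3.53 and 3.73 CPM in knockout libraries and 2.91, 2.78 and 2.70 CPM in control libraries, and the log2 fold change was 0.42 (SE 0.10, edgeR quasi-likelihood adjusted p = 0.00403). Both rises were under 1.5-fold. EFNA3, which lies between EFNA4 and EFNA1 within 71.1 kb of chromosome 1, had 1.62 ± 0.265 CPM in knockout cells and 1.42 ± 0.308 CPM in control cells and did not pass. EFNA2 had 12.3 ± 0.689 CPM in knockout cells and 13.1 ± 0.228 CPM in control cells, EFNA5 had 0.618 ± 0.231 CPM in knockout cells and 0.559 ± 0.0516 CPM in control cells, and neither passed.

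On the B side, 2 of 5 EphB receptors rose and 1 fell, and 2 of 3 B-type ephrins rose, beside 21.2% higher and 18.5% lower over all tested genes. EPHB2 had 13.3 ± 0.50 CPM in knockout cells and 0.303 ± 0.0522 CPM in control cells, EPHB3 had 30.1 ± 1.26 CPM in knockout cells and 15.1 ± 1.03 CPM in control cells, and EPHB4 fell 1.26-fold, with exons that overlap SLC12A9. EPHB1 and EPHB6 did not pass. EFNB2, a transmembrane ephrin that EPHA4 can also bind, rose to 14.7 ± 0.245 CPM in knockout cells, against 7.89 ± 0.752 CPM in control cells. EFNB1 rose 1.31-fold and EFNB3 did not pass. The median log2 fold change was 0.36 for the EphB receptors and 0.39 for the B-type ephrins.

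Among 6 tyrosine kinases of the Src and Abl families that act with Eph receptors, 4 rose and 0 fell, beside 21.2% higher and 18.5% lower over all tested genes, and the median log2 fold change of the list was 0.32. FYN, a Src-family kinase of neurons, had 55.2 ± 3.54 CPM in knockout cells and 30.6 ± 1.80 CPM in control cells (SD, n = 3 each). LYN rose 1.35-fold, SRC 1.27-fold and YES1 1.23-fold. ABL1 and ABL2 did not pass, and without control replicate 1 or with DESeq2 the count of kinases that fell was 1.

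Of 19 tested adaptors, phosphatases and proteases that act on EphA receptors, 5 rose and 6 fell, beside 21.2% higher and 18.5% lower over all tested genes. The median log2 fold change was -0.03. SIPA1L1, a GTPase-activating protein that binds EPHA4, had 17.4 ± 0.0609 CPM in knockout cells and 8.88 ± 0.459 CPM in control cells. RIN1, a Ras effector that has been linked to EPHA4 endocytosis in mice, rose 3.37-fold, with 0.384 ± 0.111 CPM in control cells, and PIK3R1, a regulatory subunit of PI3-kinase, rose 1.58-fold. SHC1 rose 1.41-fold, with exons that overlap PYGO2. PTPN1, named after its values were seen, also rose, by 1.11-fold. The 6 that fell, named after their values were seen, were ANKS1B, RASA1, GRB10, NCK2, CRK and PTPN11, with falls of 1.12-fold to 1.52-fold. ANKS1B, which fell most, had 6.18 ± 0.539 CPM in knockout cells and 9.42 ± 0.451 CPM in control cells, and its exons overlap APAF1, as those of RASA1 overlap CCNH and those of PTPN11 overlap RPL6. Of 4 membrane proteins that partner A-type ephrins, 1 was tested: GFRA1, a GDNF receptor, rose to 3.61 ± 0.462 CPM in knockout cells, against 0.477 ± 0.198 CPM in control cells. NGFR, NTRK2 and RET were too low to be tested.

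**Figure D4:**
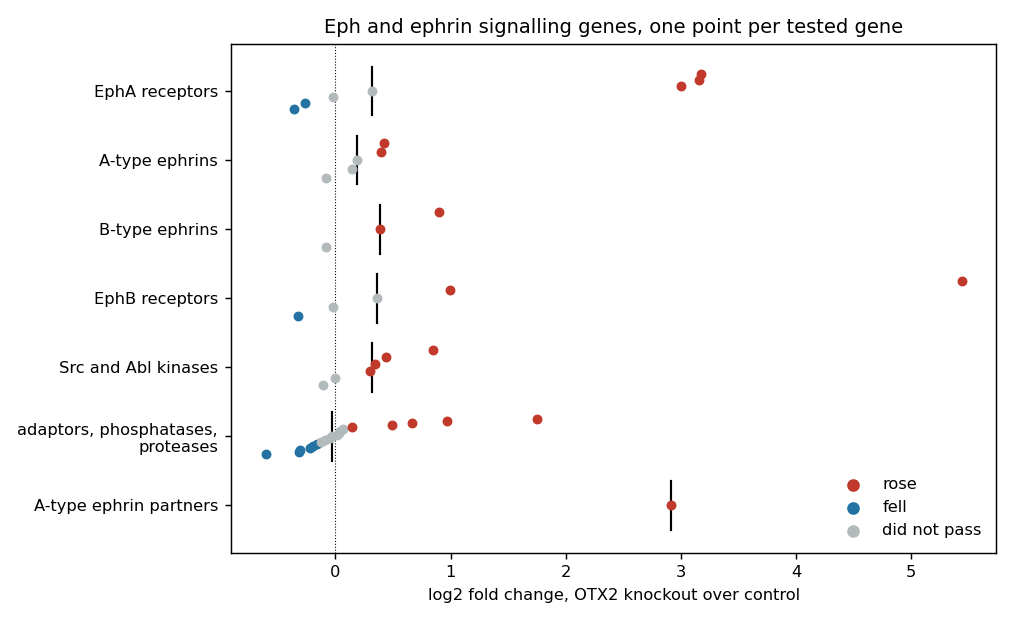
Log2 fold change of OTX2 knockout over control (horizontal axis) for each tested gene of the EphA receptors and 6 lists of related genes; black bars are list medians, and colour marks genes that rose, fell or did not pass. Changes above 2 were held by EPHA3, EPHA4, EPHA5, EPHB2 and GFRA1, and most signalling genes lay within 1 of 0.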

How the data were processed

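Total RNA was sequenced from 6 D283 cultures, and what the authors deposited is raw read counts by gene symbol, 1 column for each library. Per the submitters' processing notes, STAR and hg38 were used, while counting program, annotation and strand setting were not given in the sources used here. Columns were matched to libraries by title, and groups were taken from the genotype label.

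Tests used edgeR 4.0.16 (R 4.3.3): filterByExpr at its defaults (a CPM of 0.164 or more in at least 3 libraries), TMM scaling, and the quasi-likelihood F test over 18420 genes with Benjamini-Hochberg adjustment at 0.05. Standard errors were derived from the log2 fold change and its F statistic, and 95% intervals are unadjusted. Fold changes quoted as ratios are of mean CPM. Profile distances used log2 CPM with a prior count of 2. The scripts were tested on simulated data. Coordinates, lengths and exon overlaps came from GENCODE release 29 on GRCh38. Intervals from counts cover counting error only, since reads lacking molecular identifiers may be copies of 1 molecule.

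The members and lists were chosen with earlier results of these data known, and 1 list of downstream signalling genes is not reported here. Named genes were the 9 receptors, the A-type ephrins, up to 4 members of each other list with the smallest adjusted p, OTX2, and the 5 nearest profiles of the called receptor with the largest log2 fold change; EPHA4's nearest profiles, flanking genes and other names were added afterwards. Alternatives were other scalings, filters and thresholds, each library left out, DESeq2 1.42.0, limma-voom (limma 3.58.1), glmTreat, removal of mitochondrial and rRNA genes, and other lengths.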

Additional observations from a re-analysis of the deposited data

How the results depend on the processing

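EPHA3, EPHA4 and EPHA5 were called as higher under all 16 alternatives, and EPHA2 and EPHA8 as lower under 15 of them. Against a 1.5-fold change (glmTreat), EPHA2 (log2 fold change -0.26) and EPHA8 (-0.36) were no longer called, 1050 genes rose and 157 fell, and the counts that rose or fell became 0 for falling EphA receptors, 0 for rising A-type ephrins, 1 for rising B-type ephrins, 0 for falling EphB receptors, 1 for rising Src and Abl kinases, and 2 rising and 0 falling adaptors. EPHA6 was called with library totals alone (0.40) and with a filter of 1 CPM in 3 libraries (0.33). With library totals alone 2034 genes fell. With DESeq2, 1 Src and Abl kinase fell, and without a filter 3 ephrin partners rose. Leaving out each library in turn gave 0 to 1 falling Src and Abl kinases. On merged exons, EPHA2's share was 70.9% in knockout and 82.5% in control cells, and EPHA4's 14.1% and 1.53%; on coding length EPHA2's was 60.4% and 77.1%, and EPHA4's 21.5% and 2.57%; the cause is the length divided by. The cause of the other changes was not tested. No paired analysis was possible because the labels give the groups no shared replicate numbers. Low counts limit EPHA1 and EPHA10 above all.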
